A study of Homo sapiens with 6 samples.

Results

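The proteasome is the large protease that degrades ubiquitin-tagged proteins, and its active sites are built from a small set of exchangeable subunits. The mRNA levels of 10 genes of this machinery were followed in BxPC-3 cells, an established human pancreatic ductal cancer cell line, after transfection of the microRNA miR-4711-5p. The genes were taken by symbol and comprised the 3 constitutive catalytic subunits PSMB5, PSMB6 and PSMB7, their 3 immune counterparts PSMB8, PSMB9 and PSMB10, the PA28 activator genes PSME1 and PSME2, the assembly factor POMP and the transcription factor NFE2L1. All 10 were among the 26255 gene symbols measured, and all 10 were also among the 12040 genes that passed the filter on low values.

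The 3 conditions were sequenced with 2 libraries each, and all 6 libraries came from the same line 36 h after the start of treatment. Parent cells received no treatment, NC-1 cells received a negative control RNA, and miR-4711-5p cells received the microRNA as a synthetic duplex. The labels do not state which control sequence NC-1 is. RNA was measured as FPKM, the number of fragments divided by exon length and by the number of mapped fragments, so that levels of different genes can be set side by side. Nothing in the labels says that the 2 libraries of a group came from separate cultures, so every p-value below measures the spread between these libraries, which may be technical. A bulk library also cannot tell fewer cells expressing a gene from less of its RNA per cell.

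The libraries fitted the label of the line. The 6 epithelial markers (KRT7, KRT8, KRT18, KRT19, EPCAM and CDH1) summed to between 5195 and 6247 FPKM in the 6 libraries, and SMAD4, which this line lacks, was listed at 0 in all 6. Leukocytes use the immune subunits as their usual form, so 9 leukocyte genes were also read. TYROBP was listed at 0 throughout and PTPRC, CD53 and CD37 stayed at or below 0.139 FPKM, and CD3E and CD14 at or below 0.684 and 2.18 FPKM. LAPTM5 and CORO1A were expressed, and the leukocyte sum ranged from 294 to 296 FPKM in Parent, from 319.7 to 320.5 FPKM in NC-1 and from 178 to 180.4 FPKM with miR-4711-5p. That sum was therefore lower in the group in which PSMB8 and PSMB9 were higher, and its part in their values was not tested. FPKM summed to between 493145 and 550772 per library, and the relative depth read from the steps between the lowest values ranged from 0.751 to 1.21 of the first Parent library. Depth in reads is unknown.

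As background, the core particle of the proteasome is a stack of rings, and the inner ones carry the active sites. PSMB6 provides the caspase-like site, PSMB7 the trypsin-like site and PSMB5 the chymotrypsin-like site. Under interferon, newly assembled cores take PSMB9 in place of PSMB6, PSMB10 in place of PSMB7 and PSMB8 in place of PSMB5, and this immunoproteasome favours peptides suited to MHC class I molecules. POMP is a chaperone of core assembly, PSME1 and PSME2 form the PA28 cap that opens the core, and NFE2L1 drives transcription of proteasome genes when proteasome activity falls short. A microRNA pairs through its seed, bases 2 to 8, with sites in mRNAs, most effectively in the 3′ UTR.

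PSMB6, the constitutive caspase-like subunit, was the only one of the 10 genes called lower with miR-4711-5p, and it was called against both control groups. It stood at 183 and 171 FPKM in Parent, at 154 and 165 FPKM in NC-1 and at 36.8 and 40.2 FPKM with miR-4711-5p. Both miR-4711-5p libraries lay far below the lowest of the 4 control libraries, and the 2 control groups themselves did not overlap. The mean with miR-4711-5p was 24.1% of NC-1 and 21.7% of Parent. On the scale of log2(FPKM + 1), used for all fold changes here, the level fell by 2.02 against NC-1 (SE 0.06, limma adjusted p = 3.75e-06) and by 2.17 against Parent (SE 0.06, limma adjusted p = 3.30e-06). In the order of all 12040 genes PSMB6 was in place 14 from the lowest log2 fold change against NC-1 and in place 6 against Parent. NC-1 against Parent gave -0.15 (95% interval -0.30 to -0.00047), which did not pass after adjustment (limma adjusted p = 0.122).

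PSMB6 also stood apart in sequence, since it was the only one of the 10 with a full complement of the seed in its 3′ UTR. The mature microRNA is given with its seed in capitals, as RefSeq lists it. Under it stand the seed matches of PSMB6 (both sites), PSMB9 and PSME1 in capitals, read from the GRCh37 genome, which is the same build as the hg19 of the files, with GENCODE annotation. The capitals of PSMB9 and of the coding site of PSMB6 are complementary to the whole seed, and those of the other PSMB6 site add an A after it. The PSME1 match is partial, since it pairs with the seed except its last base and also ends in an A that lies outside the seed. The other 7 genes held no such match in the canonical coding sequence or in any annotated 3′ UTR.

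miR-4711-5p: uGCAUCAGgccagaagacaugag
PSMB6, 3′ UTR: gatgccctgtaCTGATGCAaaatttaataa
PSMB6, coding sequence: ccaggcagtagCTGATGCtgtcacctacc
PSMB9, coding sequence: tggttcagctgCTGATGCccaagccgtgg
PSME1, coding sequence: tctgagcgtggTGATGCAgtgactaaagc

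Sites were searched as CTGATGCA (8mer), CTGATGC (7mer-m8) and TGATGCA (7mer-A1) on the transcript strand, and an 8mer was counted once. PSMB6 lies on chr17:4699439-4701797, plus strand. Its 8mer at chr17:4701756-4701763 begins at base 39 of a canonical 3′ UTR of 73 nt and was present in both annotated coding transcripts. Its 7mer-m8 at chr17:4700831-4700837 is exonic, in the coding sequence. The 7mer-m8 of PSMB9 at chr6:32825120-32825126 and the 7mer-A1 of PSME1 at chr14:24607572-24607578 are also in coding exons. Of the 12040 genes, 11186 could be matched to an annotated 3′ UTR and 2057 of these (18.4%) had a site in the longest one, against 1 of the 10 genes here. Short 3′ UTRs rarely hold one. Of the 660 tested genes with a longest 3′ UTR of at most 200 nt, 9 had a site, and PSMB6 was the 1 with an 8mer (this limit was chosen after the values were seen). A match is a description of the letters and was not tested as a binding site.

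**Figure D1:**
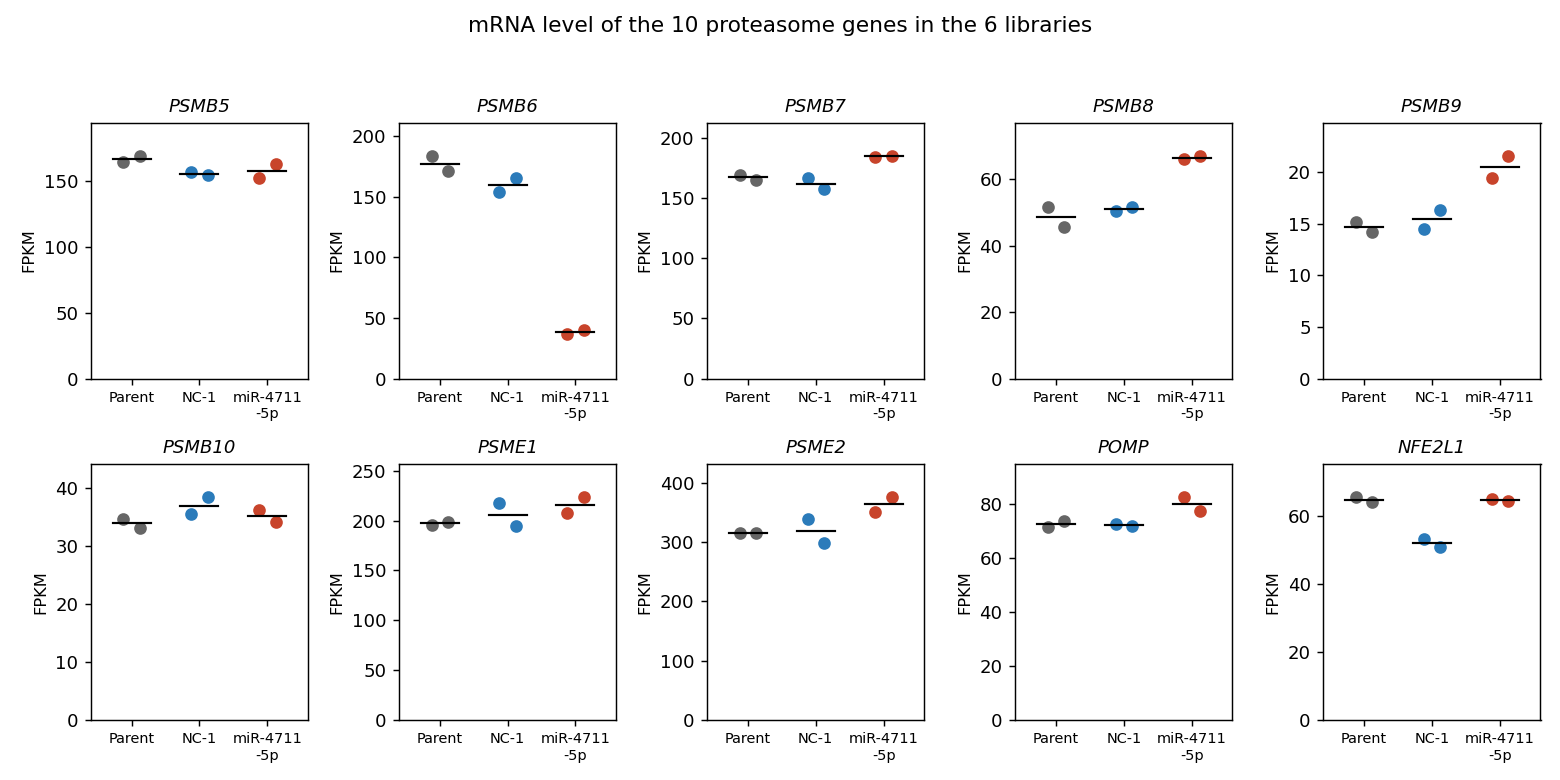
FPKM (vertical axes, from 0) of each of the 10 genes in the 2 Parent, 2 NC-1 and 2 miR-4711-5p libraries, with points for libraries and a line for each group mean. PSMB6 falls from between 154 and 183 in the controls to 36.8 and 40.2, whereas PSMB7, PSMB8, PSMB9, PSME2 and POMP lie above all 4 control libraries and NFE2L1 is low in NC-1.

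PSMB5 and PSMB7 did not share the decrease of PSMB6. PSMB5 (chr14:23485752-23504439, minus strand) measured 164 and 169 FPKM in Parent, 156 and 154 FPKM in NC-1, and 152 and 163 FPKM with miR-4711-5p. The miR-4711-5p libraries overlapped the controls. The log2 fold change was 0.02 against NC-1 (95% interval -0.09 to 0.13, limma adjusted p = 0.757) and -0.08 against Parent (95% interval -0.19 to 0.03, limma adjusted p = 0.212). PSMB7 (chr9:127115744-127177723, minus strand) measured 169 and 165 FPKM in Parent, 167 and 157 FPKM in NC-1, and 184 and 185 FPKM with miR-4711-5p, which put both miR-4711-5p libraries above all 4 controls. PSMB7 rose by a log2 fold change of 0.19 against NC-1 (SE 0.04, limma adjusted p = 0.0136) and 0.14 against Parent (SE 0.04, limma adjusted p = 0.0348). These are small differences, and neither call was stable. Without the first or the second miR-4711-5p library the adjusted p against NC-1 was 0.0731 and 0.0762, and without the second NC-1 library it was 0.0565. The call against Parent was lost in 7 of 15 alternatives, among them without the first or the second Parent library (adjusted p = 0.0737 and 0.128), without either miR-4711-5p library (adjusted p of at most 0.132) and without the filter on low values (adjusted p = 0.0522).

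The 3 constitutive subunits, which enter the core in equal numbers, thus had similar mRNA levels only in the controls. PSMB6 amounted to between 98.4% and 112% of PSMB5 in the 4 control libraries and to 24.1% and 24.7% with miR-4711-5p. Relative to PSMB7 it amounted to between 92.2% and 108% in the controls and to 19.96% and 21.8% with miR-4711-5p. Ratios within a library do not depend on how the libraries are scaled to each other. In Parent the mean levels of PSMB7 and PSMB5 overlapped and PSMB6 stood just above them, and in NC-1 the range of PSMB6 overlapped those of both. With miR-4711-5p, PSMB6 (38.5 ± 2.43 FPKM, SD, n = 2) was in place 8 of the 10 genes, below PSMB8 (66.5 ± 0.654 FPKM) and NFE2L1 (64.9 ± 0.511 FPKM) and next to PSMB10 (35.2 ± 1.47 FPKM), with no overlap between PSMB6 and PSMB10.

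PSMB8 and PSMB9, which are neighbours in the MHC class II region of chromosome 6, were both higher with miR-4711-5p. PSMB8 (chr6:32808494-32812456, minus strand) measured 51.6 and 45.6 FPKM in Parent, 50.5 and 51.7 FPKM in NC-1, and 66.0 and 66.9 FPKM with miR-4711-5p. It rose 1.30-fold against NC-1 (log2 0.37, SE 0.06, limma adjusted p = 0.00326) and 1.37-fold against Parent (log2 0.45, SE 0.06, limma adjusted p = 0.00131). PSMB9 (chr6:32811913-32827628, plus strand) measured 15.1 and 14.2 FPKM in Parent, 14.5 and 16.3 FPKM in NC-1, and 19.4 and 21.5 FPKM with miR-4711-5p. It rose 1.33-fold against NC-1 (log2 0.39, SE 0.08, limma adjusted p = 0.00724) and 1.40-fold against Parent (log2 0.46, SE 0.08, limma adjusted p = 0.00333). Neither gene's miR-4711-5p libraries overlapped any control. The call of PSMB9 against NC-1 rested in part on the second miR-4711-5p library, without which it was 0.32 with a limma adjusted p of 0.0607. Levels of PSMB8 were between 3.11 and 3.49 times those of PSMB9 in every library, with the miR-4711-5p libraries at 3.40 and 3.11.

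The third immune subunit did not follow them. PSMB10 (chr16:67968409-67970767, minus strand) measured 34.8 and 33.1 FPKM in Parent, 35.6 and 38.5 FPKM in NC-1, and 36.3 and 34.2 FPKM with miR-4711-5p, within the range of the controls. Its log2 fold change was -0.07 against NC-1 (95% interval -0.21 to 0.07, limma adjusted p = 0.391) and 0.05 against Parent (95% interval -0.09 to 0.19, limma adjusted p = 0.509). With every library scaled to the same sum of FPKM the value of PSMB10 against Parent was 0.19 and passed the threshold (limma adjusted p = 0.0370). That scaling moves the median of all genes by 0.12 between miR-4711-5p and Parent. The intervals of PSMB8 and PSMB9 against NC-1, 0.23 to 0.52 and 0.20 to 0.57, do not reach that of PSMB10, but the difference between the genes was not tested.

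Setting each constitutive subunit beside its immune counterpart gave 3 different pictures. PSMB9 made up 7.62% and 7.65% of the summed FPKM of PSMB6 and PSMB9 in Parent, 8.60% and 8.99% in NC-1, and 34.5% and 34.9% with miR-4711-5p. Parent cells thus held 12.1 PSMB6 mRNAs per length for each PSMB9 mRNA in both libraries, NC-1 cells 10.6 and 10.1, and miR-4711-5p cells 1.89 and 1.87. The mean share was 26.5 percentage points higher with miR-4711-5p than in the 4 control libraries (exact permutation test, two-sided, p = 0.0667, 0.1 adjusted over the 3 pairs), and 0.0667 is the smallest p that 2 against 4 libraries allow. With 2 against 2 libraries the smallest exact p is 0.333, which every contrast of 2 groups gave in all 3 pairs. The sum of the pair went from 199 and 185 FPKM in Parent and 168 and 182 FPKM in NC-1 to 56.2 and 61.8 FPKM.

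PSMB8 made up 23.9% and 21.3% of PSMB5 and PSMB8 in Parent, 24.4% and 25.1% in NC-1, and 30.2% and 29.1% with miR-4711-5p. The mean share was 6.001 points higher with miR-4711-5p than in the 4 controls (exact permutation p = 0.0667, 0.1 adjusted). The sum of this pair was between 206 and 216 FPKM in the controls and 218 and 229.8 FPKM with miR-4711-5p. PSMB10 made up 17.1% and 16.7% of PSMB7 and PSMB10 in Parent, 17.6% and 19.6% in NC-1, and 16.4% and 15.6% with miR-4711-5p, lower by -1.72 points (exact permutation p = 0.2, 0.2 adjusted). Over all 6 catalytic genes the immune share was between 15.5% and 18.2% in the control libraries and 24.6% and 24.0% with miR-4711-5p, while their summed level was between 577 and 618 FPKM in the controls and 495 and 511 FPKM with miR-4711-5p.

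**Figure D2:**
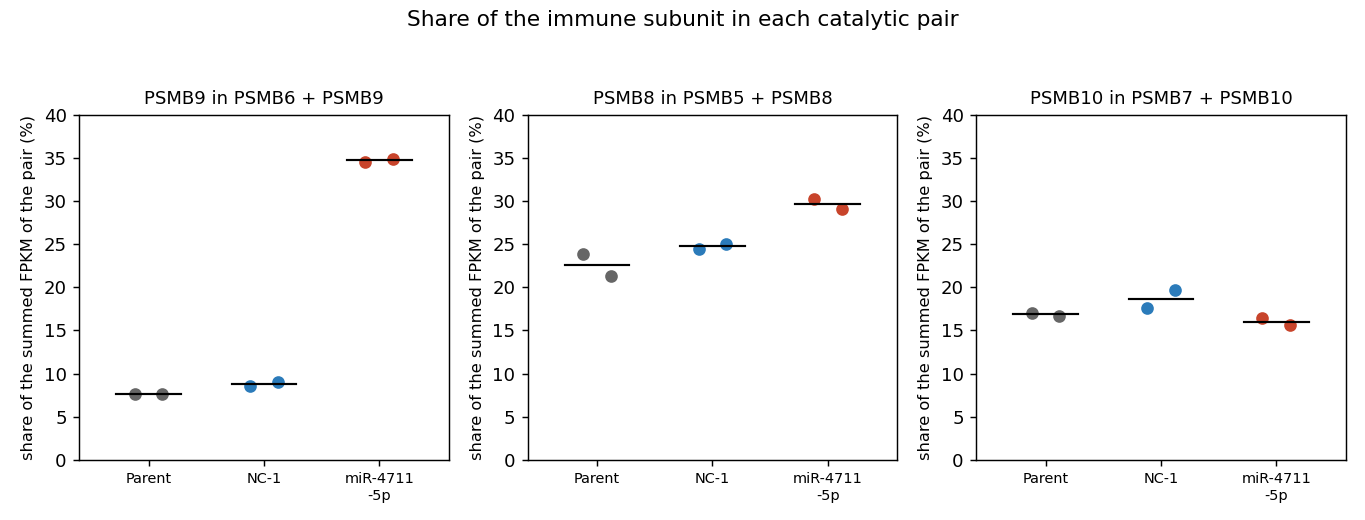
Share of the immune subunit in the summed FPKM of its pair (vertical axes, %), with 1 point per library and a line for each group mean. PSMB9 goes from between 7.62% and 8.99% in the controls to 34.5% and 34.9% with miR-4711-5p, PSMB8 from between 21.3% and 25.1% to 30.2% and 29.1%, and PSMB10 is lowest with miR-4711-5p at 16.4% and 15.6%.

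The PA28 genes were the most abundant of the 10 in every group. PSME2 (chr14:24612571-24616779, minus strand) measured 315.8 and 315.4 FPKM in Parent, 339 and 299 FPKM in NC-1, and 352 and 376 FPKM with miR-4711-5p. Both miR-4711-5p libraries were above all 4 controls, but the 2 NC-1 libraries differed from each other by more than the first miR-4711-5p library differed from the higher of them. PSME2 passed the threshold against Parent (log2 0.20, SE 0.06, limma adjusted p = 0.0391) and not against NC-1 (log2 0.19, 95% interval 0.04 to 0.34, limma adjusted p = 0.0523). The call against Parent was lost without any 1 of the Parent and miR-4711-5p libraries, with adjusted p between 0.0755 and 0.202, and without the first NC-1 library PSME2 was called against NC-1 (log2 0.28, limma adjusted p = 0.0159). PSME1 (chr14:24605372-24608176, plus strand) measured 196 and 198 FPKM in Parent, 217 and 195 FPKM in NC-1, and 207 and 223 FPKM with miR-4711-5p, and the groups overlapped. Its log2 fold change was 0.06 against NC-1 (95% interval -0.08 to 0.21, limma adjusted p = 0.442) and 0.13 against Parent (95% interval -0.02 to 0.27, limma adjusted p = 0.143). PSME1 was called against Parent once each library had the same sum of FPKM (log2 0.26, limma adjusted p = 0.00994). That scaling moves the median of all genes by 0.12 in this comparison. PSME2 was between 1.54 and 1.61 times PSME1 in the controls and 1.70 and 1.68 times with miR-4711-5p. PSME2 has 6 annotated pseudogenes on other chromosomes, PSMB7 has 1 and POMP has 1, and how reads were shared with them was not measured.

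POMP (chr13:29233202-29253096, plus strand) measured 71.1 and 73.4 FPKM in Parent, 72.4 and 71.6 FPKM in NC-1, and 82.3 and 77.1 FPKM with miR-4711-5p. The control libraries were close together and both miR-4711-5p libraries lay above them. POMP was just past the threshold against NC-1 (log2 0.14, SE 0.05, limma adjusted p = 0.0498) and just short of it against Parent (log2 0.14, SE 0.05, limma adjusted p = 0.0525). In 12 of the 15 alternative analyses the call against NC-1 was lost, including each one that left out a library, where the adjusted p ranged up to 0.255 and the log2 fold change was 0.10 without the first miR-4711-5p library and 0.19 without the second.

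NFE2L1 (chr17:46125691-46138907, plus strand) was the only one of the 10 whose difference between NC-1 and Parent was called in the values as deposited. With the same sum of FPKM in each library PSMB10 was called as well, higher in NC-1 by 0.20. NFE2L1 measured 65.7 and 64.3 FPKM in Parent, 53.5 and 50.9 FPKM in NC-1, and 65.2 and 64.5 FPKM with miR-4711-5p. The NC-1 libraries lay apart from the other 4, and the miR-4711-5p libraries fell within the range of Parent. NFE2L1 was lower in NC-1 than in Parent by a log2 fold change of -0.31 (SE 0.05, limma adjusted p = 0.00428) and higher with miR-4711-5p than in NC-1 by 0.31 (SE 0.05, limma adjusted p = 0.00185). Against Parent the value was -0.0022 (95% interval -0.11 to 0.10, limma adjusted p = 0.976). The first 2 comparisons share the NC-1 libraries. After scaling all libraries to the same sum of FPKM, which moves the median of all genes by 0.12 between miR-4711-5p and Parent, NFE2L1 was 0.14 higher than in Parent, a value close to that shift.

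Against NC-1, 5 of the 10 genes were called higher (PSMB7, PSMB8, PSMB9, POMP and NFE2L1) and 1 lower, where 18.4% of the 12040 genes were called higher and 21.2% lower. Against Parent, 4 were called higher (PSMB7, PSMB8, PSMB9 and PSME2) and 1 lower, where 18.7% of all genes were higher and 24.7% lower. In NC-1 against Parent limma called 0 higher and NFE2L1 lower (0 higher and 2 lower at an unadjusted p under 0.05), where 12.1% of all genes were higher and 15.1% lower. Both miR-4711-5p libraries lay above all 4 control libraries for 5 of the 10 (PSMB7, PSMB8, PSMB9, PSME2 and POMP) and below them for PSMB6, as they did for 23.8% and 26.3% of all genes. The median log2 fold change of the 10 genes was 0.17 against NC-1 and 0.13 against Parent, where the medians over all tested genes were 0.00 and -0.01. Over all genes the balance of higher and lower calls changed with the scaling. As deposited, 2214 genes were higher and 2549 lower against NC-1, 2255 and 2975 against Parent, and 1456 and 1823 between NC-1 and Parent. With the same sum in each library the counts became 2923 and 2083, 4010 and 1776, and 2327 and 1000. On that scale 9 of the 10 genes were called against Parent, 8 of them higher.

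**Figure D3:**
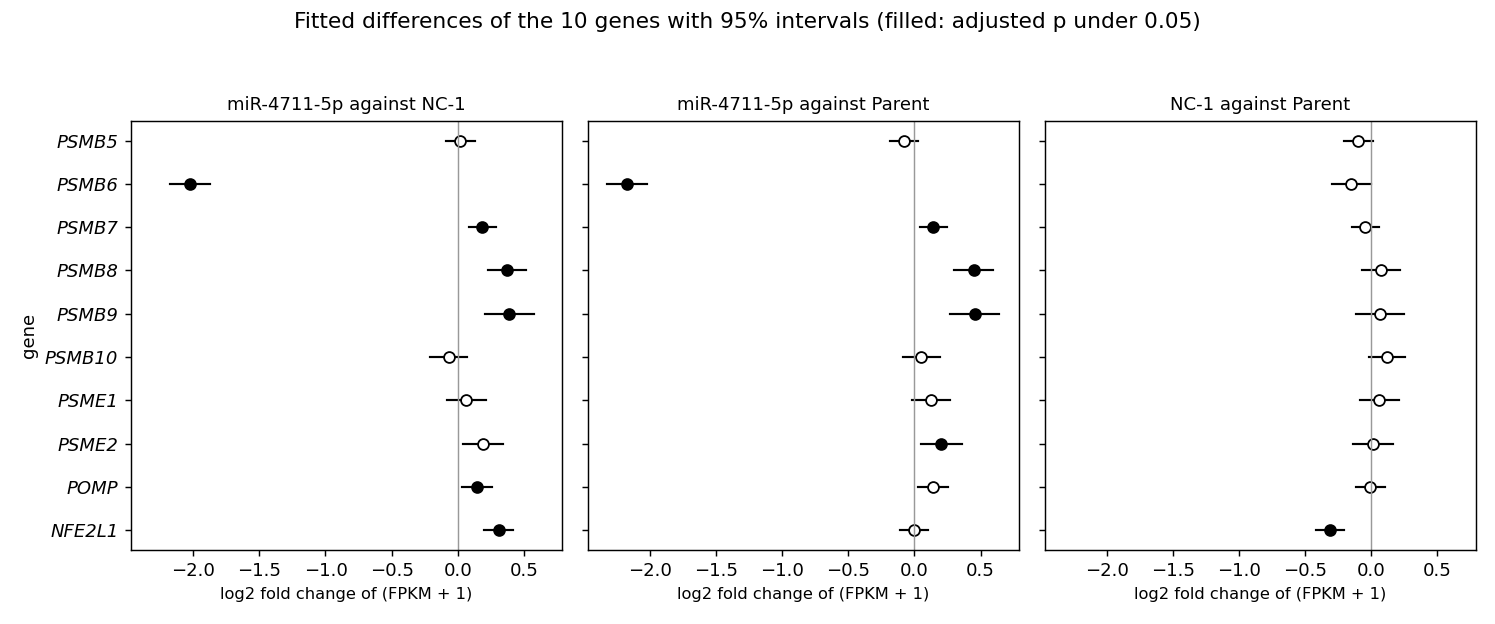
Fitted log2 fold change of (FPKM + 1) (horizontal axes) for each gene (vertical axis) in the 3 comparisons, with bars for 95% intervals of the limma fit and filled points for adjusted p under 0.05. PSMB6 stands apart at -2.02 and -2.17, the called increases lie between 0.14 and 0.46, and NFE2L1 is the 1 filled point between NC-1 and Parent.

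The rest of the core and its cap showed smaller differences than PSMB6, with 1 further decrease of size. Of the 11 structural 20S subunits, 5 were higher and 1 lower against NC-1 (median log2 fold change 0.12), and 1 was higher and 4 lower against Parent (median -0.01). The shares over all tested genes were 18.4% higher and 21.2% lower against NC-1, and 18.7% and 24.7% against Parent. The balance against Parent turned when all libraries were scaled to the same sum of FPKM, with 6 higher and 1 lower. On that scale 4010 of the 12040 genes were higher and 1776 lower against Parent. PSMA4, an alpha ring subunit, measured 183 and 198 FPKM in Parent, 193 and 180.2 FPKM in NC-1, and 106 and 111 FPKM with miR-4711-5p, a log2 fold change of -0.78 against NC-1 (limma adjusted p = 7.60e-05). PSMB3 and PSMB2, both non-catalytic beta subunits, were the highest of this list at 0.31 and 0.20 against NC-1, but neither was called against Parent (-0.01 and 0.12). PSMB3 was 1 of 3 genes of the list that were lower in NC-1 than in Parent, by -0.33 (limma adjusted p = 0.0122), where 15.1% of all genes were lower. PSMA5 gave -0.05 and was not called (limma adjusted p = 0.438). PSMA8 and PSMB11, the testis and thymus forms, were listed at 0 in all 6 libraries.

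Of the 18 genes of the 19S regulatory particle, which recognises and unfolds ubiquitinated proteins, 9 were higher and 0 lower against NC-1 by limma at an adjusted p under 0.05, with 11 higher and 0 lower at an unadjusted p under 0.05 (median log2 fold change 0.18). Of all tested genes, 18.4% were higher and 21.2% lower against NC-1. Against Parent 3 of the 18 were higher and 2 lower (median 0.071), where 18.7% and 24.7% of all genes were. These calls became 11 and 0 with the same sum, where 4010 of the 12040 genes were higher and 1776 lower. NC-1 itself was lower than Parent for 6 of the 18 and for 15.1% of all genes. ADRM1, a ubiquitin receptor, and PSMC4, an ATPase, had the largest log2 fold changes against NC-1 at 0.50 and 0.45, and PSMC2 at -0.12 and PSMD4 at -0.08 the smallest, neither of them called. ADRM1 and PSMC4 were also lower in NC-1 than in Parent, by -0.32 and -0.18 (limma adjusted p = 0.0154 and 0.0312). Against Parent ADRM1 gave 0.18 and was not called (limma adjusted p = 0.0721), and PSMC4 was called higher by 0.27 (limma adjusted p = 0.00379). In the list of assembly chaperones and other regulators 12 genes were tested, of which limma called 0 higher and 2 lower against NC-1 (6 higher and 2 lower at an unadjusted p under 0.05, median log2 fold change 0.10). With the same sum the calls became 6 higher and 1 lower, where 2923 of the 12040 genes were higher and 2083 lower. The 2 lower genes were PSMD10, an assembly chaperone of the 19S base, at -0.33 and PSMF1, an inhibitor of the core, at -0.14. The core chaperones PSMG1 and PSMG3 gave 0.22 and 0.18 and PSMG4 gave -0.17, none past the threshold. Against Parent limma called 0 of the 12 higher and 3 lower, where 18.7% and 24.7% of all genes were. At an unadjusted p under 0.05 the counts were 0 and 5, and the median was -0.14. With the same sum the calls against Parent became 3 and 1. NC-1 itself was lower than Parent for 4 of the 12 and for 15.1% of all genes. PSMG1 and PSMG3 were among these 4, at -0.40 and -0.28, and neither was called against Parent (-0.18 and -0.10).

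The genes that process NFE2L1 or pair with it moved in both directions. NFE2L1 is made in the endoplasmic reticulum, drawn out with the help of SEL1L, SYVN1 and VCP, stripped of its sugars by NGLY1 and cut by the protease DDI2. Of the 11 genes of this list, 4 were higher and 4 lower against NC-1 (median log2 fold change 0.055), and 3 were higher and 4 lower against Parent, or 5 and 3 with the same sum. Among all tested genes 18.4% were higher and 21.2% lower against NC-1, and 18.7% and 24.7% against Parent. With the same sum, 4010 of the 12040 genes were higher and 1776 lower against Parent. SEL1L measured 16.8 and 18.3 FPKM in Parent, 18.8 and 19.1 FPKM in NC-1, and 10.95 and 10.6 FPKM with miR-4711-5p (log2 fold change -0.76 against NC-1). DDI2 measured 11.8 and 12.5 FPKM in Parent, 12.7 and 11.4 FPKM in NC-1, and 6.24 and 7.70 FPKM with miR-4711-5p (log2 fold change -0.72 against NC-1, limma adjusted p = 0.00127). Of the other genes of this step, all 3 named after their values were seen, VCP was lower by -0.34, SYVN1 was higher by 0.18, and NGLY1 gave 0.16 and was not called (limma adjusted p = 0.247). The small MAF partners MAFK and MAFF were higher against NC-1 by 0.52 and 0.24. MAFF was also higher in NC-1 than in Parent, by 0.47 (limma adjusted p = 0.00409). MAFK gave -0.10 in that comparison and was not called. NFE2L2, the related factor of the oxidative response, gave 0.06 and was not called (limma adjusted p = 0.577).

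Sites for the seed were counted over these proteasome and NFE2L1 lists together, 62 tested genes with the 10 included. Of the 8 with a site in the longest 3′ UTR, 6 were lower against NC-1 (PSMB6, PSMA4, PSMF1, DDI2, VCP and SEL1L), PSMB2 was higher and PSMA5 was not called. Of the 13 with a site in the coding sequence alone, 2 were higher (PSMB9 and PSMD3) and 0 lower by limma (4 and 0 at an unadjusted p under 0.05). Of the 41 with neither, 20 were higher and 2 lower against NC-1. Against Parent 10 of these 41 were higher and 5 lower, and of the 13 with a coding site alone 1 was higher and 2 lower. The interferon and MHC class I lists read below held 7 tested genes with a site in the longest 3′ UTR. Of these 7, 3 were higher and 3 lower against NC-1. Against Parent limma called 3 of the 7 higher and 0 lower, the same counts as at an unadjusted p under 0.05. Of the 8 of the proteasome and NFE2L1 lists, 0 were higher and 7 lower against Parent by limma (1 and 7 at an unadjusted p under 0.05). Over all matched genes, 36.5% of the 2057 with a 3′ UTR site were lower against NC-1 and 11.2% higher, and of the 9129 without one 18.9% were lower and 20.6% higher. Against Parent 35.1% of the 2057 were lower and 14.7% higher, and of the 9129 23.9% were lower and 19.7% higher. The annotated site is not in every transcript. It was present in 1 of 7 coding transcripts of PSMA4, 1 of 10 of VCP, 1 of 2 of SEL1L, 1 of 2 of PSMA5 and 3 of 4 of PSMF1. All coding transcripts held it in PSMB6 (2 of 2), DDI2 (3 of 3) and PSMB2 (2 of 2), the last of which was higher. The site of PSMA4 is shown because it is the other 8mer of these lists, with the match in capitals. It lies at chr15:78844498-78844505 in the canonical 3′ UTR of 3473 nt.

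PSMA4, 3′ UTR: cagagtgttgcCTGATGCAtcccaaatgct

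**Figure D4:**
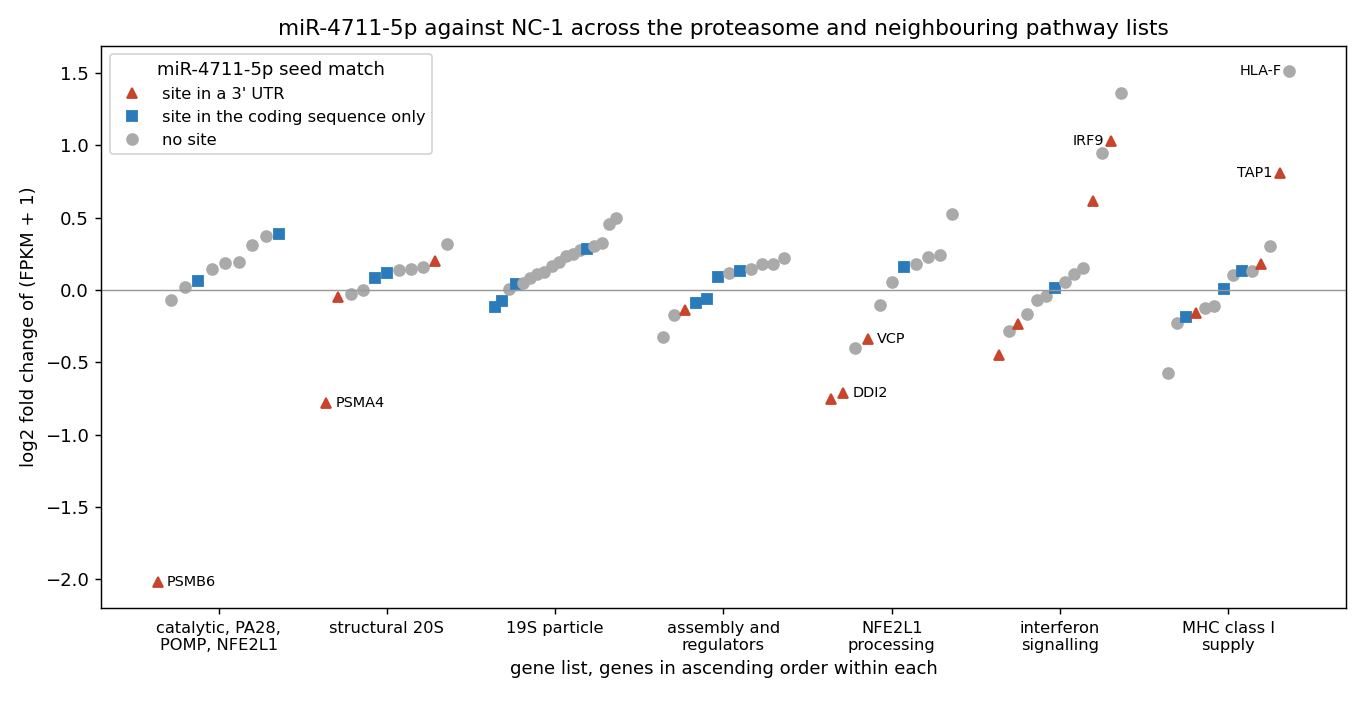
Log2 fold change of (FPKM + 1) between miR-4711-5p and NC-1 (vertical axis) for every tested gene of 7 lists (horizontal axis, ascending within each list), with the symbol showing where a seed match lies. PSMB6 at -2.02 is the lowest point, most of the other decreases in the structural and NFE2L1 lists carry a 3′ UTR site, and TAP1, IRF9 and NLRC5 carry such a site but are higher.

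The immune subunits and PA28 are known interferon targets, so the signalling genes that lead to them were read as well. Of 14 genes, 5 were higher and 3 lower against NC-1 (median log2 fold change 0.034), where 18.4% and 21.2% of all tested genes were. Against Parent limma called 7 higher and 0 lower, the same counts as at an unadjusted p under 0.05 (median 0.17). Among all genes 18.7% were called higher and 24.7% lower against Parent. NC-1 itself was higher than Parent for 8 of the 14 and for 12.1% of all genes. IRF9, a factor through which type I interferon acts on its target genes, was higher against NC-1 by 1.03 on the log2 scale. NLRC5, the transactivator of MHC class I genes, measured 1.71 and 1.52 FPKM in Parent, 2.36 and 2.65 FPKM in NC-1, and 4.46 and 4.25 FPKM with miR-4711-5p (log2 fold change 0.61 against NC-1). IRF1, which binds the promoters of immune subunits, stayed at 20.7 and 21.9, 21.7 and 21.5, and 22.0 and 23.0 FPKM in Parent, NC-1 and miR-4711-5p (log2 fold change 0.05 against NC-1, limma adjusted p = 0.441). The receptor gene IFNAR1 and the repressor IRF2 were lower against NC-1 by -0.45 and -0.28.

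Of 14 genes of MHC class I peptide supply, which uses the peptides the immunoproteasome makes, 3 were higher and 4 lower against NC-1 (median log2 fold change 0.055), and 6 were higher and 2 lower against Parent (median 0.10). Shares over all tested genes were 18.4% higher and 21.2% lower against NC-1, and 18.7% and 24.7% against Parent. With the same sum of FPKM the balance against NC-1 turned to 6 higher and 3 lower, where 2923 of the 12040 genes were higher and 2083 lower. NC-1 itself was higher than Parent for 7 of the 14 and lower for 0 by limma, the same counts as at an unadjusted p under 0.05 (median 0.15). For all genes these calls made up 12.1% and 15.1%. TAP1, a subunit of the peptide transporter and the nearest neighbour of PSMB9, measured 26.3 and 22.9 FPKM in Parent, 26.6 and 26.4 FPKM in NC-1, and 48.2 and 46.2 FPKM with miR-4711-5p (log2 fold change 0.81 against NC-1, limma adjusted p = 0.000164). Its increase of 1.78-fold was above the 1.33-fold of PSMB9, and the difference between the 2 genes was not tested. They are transcribed in opposite directions from a shared short stretch of DNA. HLA-F, whose reads can be shared with other class I genes, was higher by 1.51, and TAPBPL and ERAP2 were lower by -0.57 and -0.23. The gene interval of PSMB9, on the plus strand, overlaps those of PSMB8 by 544 nt and of TAP1 by 8608 nt, both on the minus strand and 529 nt apart, while the exons of their canonical transcripts shared 0 nt. The library kit keeps the strand, but the strand setting used in counting is not given in the sources used here.

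Promoter sequences of 250 bases before to 50 bases after the annotated start were given for 8 of the 10 genes (RefSeq, GRCh38.p14). They were searched on both strands for the letters of the interferon-stimulated response element (ISRE, GAAANNGAAA), the gamma-activated site (GAS, TTCNNNGAA) and the antioxidant-type element that NFE2L1 and NFE2L2 bind (ARE, TGACNNNGC). Matches of the 3 motifs did not overlap each other in the windows shown, and PSMB8, PSMB5 and NFE2L1 had a window for each of 2 starts. The ISRE letters were in 3.57% of 35116 promoter windows, the GAS letters in 7.66% and the ARE letters in 13.3%. The windows of 4 genes held the ISRE letters, namely PSMB8 (second start), PSMB10, PSME1 and PSME2, and all 4 carried the same 10 bases, GAAAGCGAAA on one strand or the other. The windows of 4 of the genes and of TAP1 are shown to compare the genes that rose with those that did not, with the motif letters in capitals.

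PSMB8, second start, chr6:32843998-32844297, minus strand: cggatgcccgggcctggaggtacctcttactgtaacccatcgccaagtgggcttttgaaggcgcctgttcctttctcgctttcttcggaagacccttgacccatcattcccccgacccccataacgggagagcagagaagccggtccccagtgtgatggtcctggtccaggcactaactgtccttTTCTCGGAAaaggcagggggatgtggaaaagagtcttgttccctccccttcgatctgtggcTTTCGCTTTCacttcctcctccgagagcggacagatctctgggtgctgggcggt
PSMB10, chr16:67936801-67937100, minus strand: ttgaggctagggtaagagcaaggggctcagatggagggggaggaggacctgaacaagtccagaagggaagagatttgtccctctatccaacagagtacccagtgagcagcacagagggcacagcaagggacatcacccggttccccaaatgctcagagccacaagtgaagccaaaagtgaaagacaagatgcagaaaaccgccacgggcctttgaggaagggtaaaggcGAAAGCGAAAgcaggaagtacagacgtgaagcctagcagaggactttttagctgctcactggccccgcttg
PSME2, chr14:24146561-24146860, minus strand: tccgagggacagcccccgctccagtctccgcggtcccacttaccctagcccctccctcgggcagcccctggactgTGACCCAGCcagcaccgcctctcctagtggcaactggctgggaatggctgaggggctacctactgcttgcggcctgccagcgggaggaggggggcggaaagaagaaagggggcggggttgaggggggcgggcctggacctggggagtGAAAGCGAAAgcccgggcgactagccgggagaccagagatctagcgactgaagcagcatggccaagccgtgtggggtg
PSMB9, chr6:32853942-32854241, plus strand: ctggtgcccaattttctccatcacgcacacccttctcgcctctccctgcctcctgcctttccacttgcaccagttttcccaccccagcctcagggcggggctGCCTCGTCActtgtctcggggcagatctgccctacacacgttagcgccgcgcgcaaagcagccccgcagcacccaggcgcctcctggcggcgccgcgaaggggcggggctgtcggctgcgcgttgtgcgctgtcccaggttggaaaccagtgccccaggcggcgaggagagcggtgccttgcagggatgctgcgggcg
TAP1, first start, chr6:32853655-32853954, minus strand: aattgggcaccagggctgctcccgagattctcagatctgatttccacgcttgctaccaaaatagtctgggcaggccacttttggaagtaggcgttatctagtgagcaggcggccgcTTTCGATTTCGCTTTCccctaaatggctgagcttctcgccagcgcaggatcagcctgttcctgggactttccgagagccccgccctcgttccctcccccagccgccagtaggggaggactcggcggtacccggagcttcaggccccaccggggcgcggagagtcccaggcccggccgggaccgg

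The ISRE letters begin at base -4 from the second start of PSMB8, at -21 in PSMB10, at 5 in PSME1 and at -28 in PSME2. All 4 hold these letters close to the start. As deposited, PSMB8 was higher with miR-4711-5p in both comparisons, PSME2 in 1 of them, and PSMB10 and PSME1 were called in neither. All 4 were called higher against Parent with the same sum of FPKM, PSMB10 and PSME1 by 0.19 and 0.26. On that scale 4010 of the 12040 tested genes were called higher against Parent, and the scaling moves the median of all genes by 0.12. The window of PSMB9, which was higher, held no ISRE letters and 1 match to the ARE letters at -148. The ARE letters were also in PSME1 at -86 and in PSME2 at -175, and PSMB8 had a GAS match at -65 from its second start. The TAP1 window holds a pair of overlapping ISRE matches (TTTCGATTTC and TTTCGCTTTC), 354 and 360 bases before the start of PSMB9 and thus outside its window, and the windows of TAP1 and PSMB9 share 13 nt. PSMB5 had 2 GAS matches in its second window. POMP and NFE2L1 held none of the 3 motifs. A motif match says only that these letters are present in the window, and binding was not measured.

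**Figure D5:**
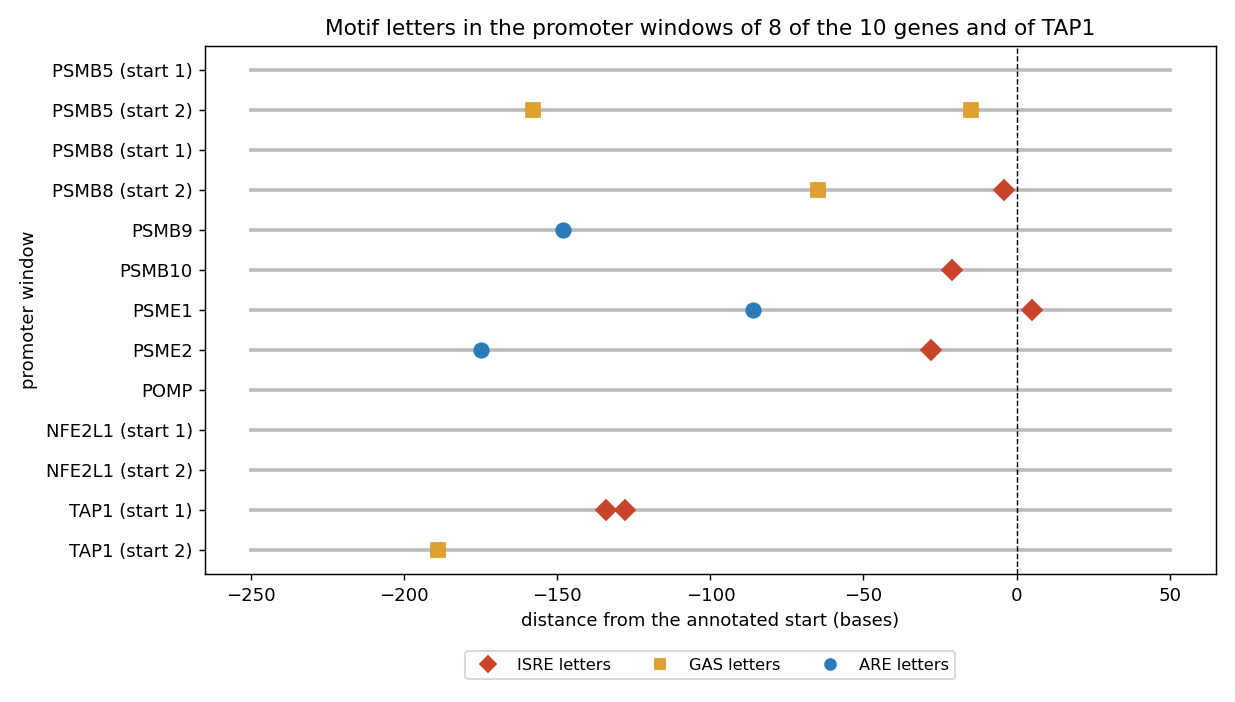
Positions of motif letters (horizontal axis, bases from the annotated start, dashed line at the start) in the promoter windows of 8 of the 10 genes and of TAP1 (vertical axis). The ISRE letters lie between -28 and 5 in PSMB8 (start 2), PSMB10, PSME1 and PSME2 and further upstream in TAP1, and PSMB9 has an ARE match at -148 and no ISRE match. PSME1 and PSME2 also have an ARE match, at -86 and -175.

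Genes with the pattern most like PSMB6 and PSMB9 were found by the Euclidean distance between centred log2(FPKM + 1) values over the 6 libraries. For PSMB6 these were CDH1, the epithelial cadherin, at a distance of 0.276, MMP28, a metalloproteinase, at 0.279, and LY6D, a surface antigen, at 0.405. CDH1 went from 114 and 117 FPKM in Parent and 109 and 109.6 FPKM in NC-1 to 28.3 and 30.9 FPKM with miR-4711-5p. For PSMB9 they were ZNF337, a zinc finger gene, at 0.0336, RNF122, a RING finger gene, at 0.0635, and MICAL2, a monooxygenase acting on actin, at 0.0989. ZNF337 measured 5.91 and 5.42 FPKM in Parent, 5.52 and 6.19 FPKM in NC-1, and 7.56 and 8.50 FPKM with miR-4711-5p. As for PSMB9, the second NC-1 and the second miR-4711-5p library were the higher ones of their groups.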

How the data were processed

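RNA from BxPC-3 cells was sequenced by the authors with a strand-specific mRNA kit in single-end mode. Per the labels, the deposited FPKM values were made on hg19 with TopHat2 2.1.1, Bowtie2 2.3.5.1, SAMtools 1.2 and Cufflinks 2.2.1. The labels also name Cuffdiff, and the paper names Cuffnorm 2.2.1 as the source of the FPKM values. For some of the other tools the paper gives other versions. The gene annotation, the strand option and the normalization option are not given in the sources used here.

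From FPKM onward, Python 3.11.15, numpy 2.4.6, pandas 2.3.3, matplotlib 3.10.9, R 4.3.3 and limma 3.58.1 were used. Testing was limited to genes averaging 1 FPKM or more over the libraries. The log2(FPKM + 1) values were fitted with limma (eBayes with a trend) in 1 fit of all 3 groups (3 residual and 4.15 prior degrees of freedom), two-sided, with Benjamini-Hochberg adjustment over 12040 genes at 0.05. Fold changes on this scale understate those of low genes. Ratios without log2 are of mean FPKM. On simulated data for miR-4711-5p against NC-1 (12040 genes, 200 of them changed, 10 runs), 83.8% of log2 changes of 0.8 and 42.5% of 0.4 were found, and 4.39% of calls were false. In the data 4763 genes were called in this comparison. The adjustment then sets another cut-off, so these rates do not carry over to the data. Shares of pairs were compared with an exact permutation test. Symbols were matched to GENCODE v44 on GRCh37, 10597 directly, 589 through a synonym and 854 not at all.

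The genes, lists and tests were chosen with earlier results of these data known. Beyond the 10 genes, the rule named the 2 highest and 2 lowest genes of each list against NC-1, with TAP1, IRF1, NLRC5, DDI2 and NFE2L2, and the 3 nearest patterns of PSMB6 and PSMB9. Genes named as examples of a seed site or of a called count of 5 or fewer were named after their values were seen. Some genes counted in these lists are not reported here.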

Additional observations from a re-analysis of the deposited data

How the results depend on the processing

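The decrease of PSMB6 kept its direction and its call against both controls in all 15 alternatives, with log2 fold changes from -2.09 to -1.96 against NC-1 and from -2.24 to -2.04 against Parent. The calls of PSMB8 and PSMB9 ended when at least 1.5-fold was also required, with their log2 fold changes (0.37 and 0.39 against NC-1) as before, and the call of PSMB9 against NC-1 also ended without the second miR-4711-5p library. Requiring 1.5-fold left 976, 1112 and 298 of all genes against NC-1, against Parent and between NC-1 and Parent, and 1, 1 and 0 of the 10 genes. Without a filter on low values 2165 genes were called between NC-1 and Parent and 3 of the 10 against Parent, as many as without a trend. With the same sum of FPKM, 9 of the 10 were called against Parent and 2 between NC-1 and Parent.

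Leaving out 1 library at a time gave 2815 to 4639, 3164 to 5135 and 1355 to 2296 genes in the 3 comparisons, and 3 to 6, 3 to 5 and 1 to 1 of the 10. The lone library of a group is then assumed to vary like the other groups. The lowest counts came without the first miR-4711-5p library for all genes in both comparisons with miR-4711-5p, without the first Parent library between NC-1 and Parent, and without the second miR-4711-5p library for the 10 genes against NC-1. Differences in share from the controls ranged from 26.3 to 26.8 points for PSMB9, from 5.20 to 6.54 for PSMB8 and from -2.14 to -1.09 for PSMB10. On the difference of log2(FPKM + 1) they were 2.52, 0.44 and -0.17.

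With a replicate block, 4564, 4983 and 2864 genes were called and 5, 4 and 1 of the 10. The numbers of the libraries did not pair them (correlations of deviations from -0.01 to 0.06), so they share only a number. The block ended the call of POMP against NC-1 (adjusted p = 0.0707) and of PSME2 against Parent (adjusted p = 0.0568).

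Values near 0 that changed sign were, with the same sum of FPKM, 0.061 for PSMB5 and 0.14 for NFE2L1 (called, adjusted p = 0.0422) against Parent, 0.041 for PSMB7 and 0.079 for POMP between NC-1 and Parent, and 0.0014 for PSMA5 against NC-1, and after median-of-ratios rescaling 0.012 for POMP between NC-1 and Parent and 0.021 for NFE2L1 against Parent. Without each library in turn the values crossed 0 against NC-1 for PSMB5 (-0.027 to 0.067), PSME1 (-0.013 to 0.14) and NFE2L2 (-0.035 to 0.15), and against Parent for NFE2L1 (-0.017 to 0.013). Between NC-1 and Parent they did so for PSMB8 (-0.013 to 0.16), PSMB9 (-0.015 to 0.15), PSME1 (-0.017 to 0.14), PSME2 (-0.077 to 0.10) and POMP (-0.028 to 0.017). None of these but the 1 marked was called, and the cause was not tested. With 2 libraries a group, several calls of small differences depended on 1 library, and FPKM without counts leaves the depth unknown.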
